A study of Mus musculus with 8 samples.

Results

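Cell cycle and DNA replication genes were measured in whole spines of control mice and of mice with proteoglycan-induced spondylitis (PGISp), a model of ankylosing spondylitis in which immunisation against cartilage proteoglycan is followed by inflammation around the intervertebral discs and new bone formation. The 49 genes were chosen by name, as every probe of the array annotated to 1 of 23 genes of DNA replication and S phase or 26 genes of mitosis, out of 16593 symbols on the array. Of the 49, 42 had at least 1 probe with values, 70 probes in all. The other 7 (Mki67, Ccnb1, Aurkb, Racgap1, E2f8, Gins1 and Gins2) are not analysed here. A gene was tested if a probe had a mean log2 value over the 8 arrays above the median of all values, 6.77, and was read from its brightest such probe. This left 31 members, 18 of replication and 13 of mitosis, among 9608 genes tested.

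All mice were BALB/c and carried the IL4 knockout, so the controls also lacked interleukin-4, and all were collected at week 12. The 4 PGISp mice were females, 3 months old at the first injection, given human cartilage extract with the adjuvant dimethyl dioctadecyl ammoniumbromide, and were picked for severe peripheral arthritis because disease in the spine itself was not assessed beforehand. The 4 control mice had no such treatment by their labels, and their sex is not stated separately. RNA from 1 spine was hybridised to each array of 1 Illumina MouseRef-8 BeadChip, with the groups alternating. Spines are named by their position on the chip, A, C, E and G for PGISp and B, D, F and H for control.

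The deposited values are log2 intensities after a variance stabilizing transformation and robust spline normalization, a scale that understates fold changes near background. Background was taken from 1305 probes of odorant and pheromone receptors, as their 95th percentile, and lay between 6.73 and 6.80 on the 8 arrays. Correlations between arrays ran from 0.981 to 0.994 within groups and from 0.972 to 0.990 between groups. Marker genes of osteoblasts (10 of 10), skeletal muscle (20 of 22) and chondrocytes (7 of 15) passed the filter. Eif2s3y, a Y-linked gene, was high in 2 controls, at 8.57 in spine B and 8.33 in spine F, and read 6.49 to 6.91 elsewhere, so results were also computed without control B and F.

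A dividing cell first licenses its replication origins by loading the MCM helicase, then copies its DNA in S phase, and later condenses and separates its chromosomes in mitosis. E2F transcription factors switch on many replication genes as cells leave G1, whereas many mitosis genes are switched on later through a promoter element called CHR, often beside CCAAT boxes. In adult mice the marrow inside the vertebrae is among the tissues where cells divide most, with the precursors of granulocytes, red cells and B cells all cycling.

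The promoters of replication and mitosis members held these words at different rates. RefSeq windows of 300 bases around the start site (GRCm38.p6, 250 bases before to 50 after) were found for 19 replication members and 22 mitosis members. They were searched on both strands for the E2F words TTTCCCGC, TTTCGCGC, TTTGCCGC and TTTGGCGC, for the CHR words TTTGAA and TTTAAA, and for CCAAT. An E2F word lay in 7 of 19 replication genes (36.8%) and in 1 of 22 mitosis genes (4.55%), against 2.60% of 27025 genes with a window. The order was the other way for CHR, found in 18 of 22 mitosis genes (81.8%) and 7 of 19 replication genes (36.8%), against 30.6% of all. CHR and CCAAT together were found in 77.3% of mitosis genes, 26.3% of replication genes and 13.4% of all. These matches are descriptions of the letters and were not tested.

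Windows of 4 members are shown because they carry the words of each class, Mcm3 for E2F, Plk1 and Top2a for CHR with CCAAT, and Cdk1 as the mitosis gene with an E2F word. Capitals mark every word found, and a word on the opposite strand appears as its reverse complement.
Mcm3, chr1:20820263-20820562, minus strand: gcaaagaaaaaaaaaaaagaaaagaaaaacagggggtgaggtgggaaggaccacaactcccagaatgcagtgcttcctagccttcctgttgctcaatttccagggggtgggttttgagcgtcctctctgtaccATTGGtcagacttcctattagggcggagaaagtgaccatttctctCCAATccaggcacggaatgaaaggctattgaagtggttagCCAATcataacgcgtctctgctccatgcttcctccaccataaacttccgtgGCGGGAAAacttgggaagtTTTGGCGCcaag
Cdk1, chr10:69352863-69353162, minus strand: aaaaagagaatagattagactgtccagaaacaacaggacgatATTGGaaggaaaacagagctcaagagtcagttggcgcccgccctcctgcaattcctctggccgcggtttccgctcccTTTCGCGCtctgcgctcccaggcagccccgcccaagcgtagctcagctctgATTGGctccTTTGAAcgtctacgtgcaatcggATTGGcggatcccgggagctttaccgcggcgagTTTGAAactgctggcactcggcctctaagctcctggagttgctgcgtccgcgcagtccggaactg
Plk1, chr7:122159185-122159484, plus strand: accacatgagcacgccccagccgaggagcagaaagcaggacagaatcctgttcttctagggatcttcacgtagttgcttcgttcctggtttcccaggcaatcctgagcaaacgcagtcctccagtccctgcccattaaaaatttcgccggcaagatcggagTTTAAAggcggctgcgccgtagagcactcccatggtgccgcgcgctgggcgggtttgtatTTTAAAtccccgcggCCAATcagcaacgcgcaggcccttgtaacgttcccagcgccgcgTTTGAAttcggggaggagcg
Top2a, chr11:99024140-99024439, minus strand: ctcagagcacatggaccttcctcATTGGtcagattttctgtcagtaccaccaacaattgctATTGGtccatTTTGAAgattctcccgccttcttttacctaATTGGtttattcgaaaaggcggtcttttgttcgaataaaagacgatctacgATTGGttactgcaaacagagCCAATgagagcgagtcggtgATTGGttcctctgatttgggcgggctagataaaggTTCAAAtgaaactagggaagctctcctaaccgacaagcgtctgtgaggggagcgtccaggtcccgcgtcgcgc

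None of the 31 members tested rose or fell in the PGISp spines (limma, 4 control and 4 PGISp arrays, Benjamini-Hochberg adjusted p under 0.1), where 10.8% of all 9608 genes did (6.26% higher and 4.56% lower). In either direction the count was 0 of 18 for replication and 0 of 13 for mitosis. At an unadjusted p under 0.05 limma had 1 member, Ccne1, and 22.6% of all genes, and the methods' t-test on the same values had 2 members and 19.7% of all genes. With Benjamini-Hochberg adjustment, which is not the permutation correction of the study's methods, the methods' t-test called 0 members, against 4.28% of all genes. Without PGISp G, the lowest spine on both lists, limma called 0 members and 16.3% of all genes. No member had groups that did not overlap, against 13.4% of all genes. In whole-tissue RNA, fewer cells of a type and less RNA per cell cannot be told apart.

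Differences between the groups were small for every member tested. They ran from a log2 difference (PGISp minus control) of -0.20 for Ccne1 to 0.24 for Nusap1, 14 above 0 and 17 below, with a median of -0.01 and a median size of 0.10. The median size over all 9608 genes was 0.09, so the members lay about as far from 0 as other genes. Their 95% intervals stayed inside a 1.5-fold change either way for 30 of 31 members (96.8%), against 89.9% of all genes, on this compressed scale. The exception was Nusap1, whose interval as a ratio ran from 0.906 to 1.54. Replication and mitosis members had medians of -0.01 and 0.00, with 7 of 18 and 7 of 13 differences above 0.

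**Figure D1:**
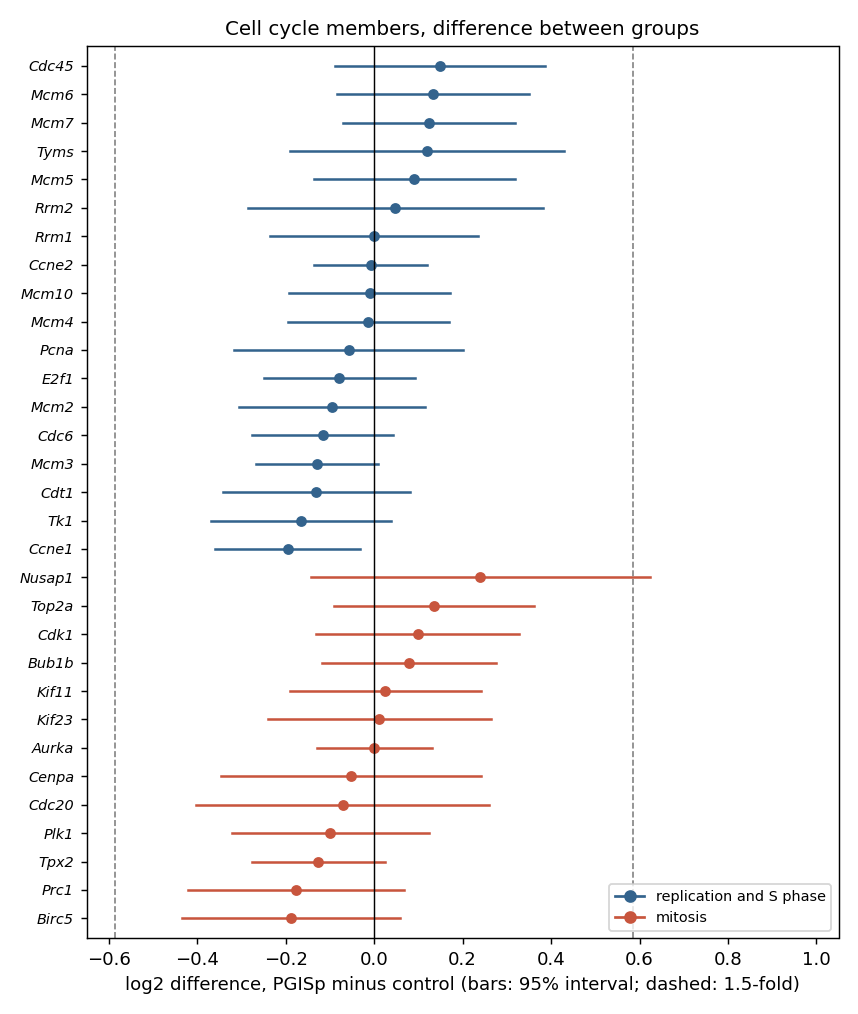
Difference between the groups for the 31 members tested, as log2 PGISp minus control on the x axis, with blue points for replication and orange for mitosis. Bars are 95% intervals of the limma fit (4 arrays a group) and dashed lines mark a 1.5-fold change, which the bar of Nusap1 alone crosses.

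Among the genes that start S phase, Ccne1 had the largest difference. Ccne1 encodes cyclin E1, which activates Cdk2 at the G1 to S transition. Its log2 value was 7.79, 7.75, 7.56 and 7.66 in control B, D, F and H and 7.48, 7.64, 7.43 and 7.44 in PGISp A, C, E and G. All 4 PGISp spines lay below control B, D and H, but PGISp C lay above control F, so the groups overlapped. The difference was -0.20 ± 0.07 (SE), with an adjusted p of 0.147. Leaving out PGISp C alone brought the adjusted p to 0.0952, and the other alternatives gave 0.110 to 0.368. Ccne2, the second cyclin E, differed by -0.01, and E2f1, an activating E2F factor that is itself a target of E2F, by -0.08. Ccne2 read 7.16 to 7.30, not far above background (6.73 to 6.80), where the scale understates fold changes.

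Origin licensing and firing genes lay on both sides of 0, 1 above and 3 below. Cdc6 loads the MCM helicase onto origins together with Cdt1. Cdc6 read 8.38, 8.52, 8.25 and 8.44 in control B, D, F and H and 8.31, 8.25, 8.38 and 8.20 in PGISp A, C, E and G. PGISp E lay as high as control B and PGISp C as low as control F. The differences were -0.12 for Cdc6 (adjusted p = 0.379, and -0.20 without control B and F or -0.077 without control D) and -0.13 for Cdt1 (adjusted p = 0.461). Cdc45, which turns the loaded helicase into an active one, differed by 0.15 (adjusted p = 0.459), and Mcm10, which acts at the same step, by -0.01.

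The 6 subunits of the MCM helicase form one ring and act together, and 3 of them had differences above 0 and 3 below, with a median of 0.04. Mcm3 had the smallest p of the 6. It read 7.60, 7.73, 7.71 and 7.66 in control B, D, F and H and 7.48, 7.60, 7.48 and 7.63 in PGISp A, C, E and G. PGISp A and E were the lowest spines, PGISp C was level with control B, and PGISp G lay within the control range. The difference was -0.13 ± 0.06 (SE), with an adjusted p of 0.255. Mcm4, the brightest replication member, read 10.53, 10.78, 10.47 and 10.47 in control B, D, F and H and 10.53, 10.67, 10.49 and 10.51 in PGISp A, C, E and G. Control D was the highest spine and the other 7 lay between 10.47 and 10.67, a difference of -0.01 (adjusted p = 0.945). The remaining subunits differed by 0.13 (Mcm6), 0.12 (Mcm7), 0.09 (Mcm5) and -0.10 (Mcm2), with adjusted p from 0.445 to 0.660.

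At the replication fork, Pcna encodes the sliding clamp that holds the DNA polymerases and is a usual marker of proliferation. Its values were 7.27, 7.31, 6.93 and 7.38 in control B, D, F and H and 7.26, 6.89, 7.23 and 7.28 in PGISp A, C, E and G. Control F and PGISp C were low and the other 6 spines lay between 7.23 and 7.38. These values were not far above background (6.73 to 6.80), where the scale understates fold changes. The difference was -0.06 (adjusted p = 0.818). Prim1 and Pola1, subunits of the primase complex, were not above background on any array.

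Genes that supply nucleotides for DNA synthesis differed among themselves, and for one of them its probes disagreed. Tk1 encodes thymidine kinase, which salvages thymidine. It read 9.37, 9.47, 9.04 and 9.28 in control B, D, F and H and 9.23, 9.11, 9.12 and 9.04 in PGISp A, C, E and G. Control F lay with the PGISp spines and the other controls above them. The difference was -0.16 ± 0.09 (SE), with an adjusted p of 0.324, and -0.14 on the dimmer of its probes. It was -0.25 without control B and F and -0.10 without control D. Tyms, thymidylate synthase, differed by 0.12 (adjusted p = 0.669), and Rrm1, the large subunit of ribonucleotide reductase, by 0.00 (adjusted p = 0.999).

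Rrm2, the small subunit of the same enzyme, has 2 probes above the filter. The brighter one read 8.19, 8.44, 8.19 and 8.21 in control B, D, F and H and 8.71, 8.41, 8.19 and 7.91 in PGISp A, C, E and G. PGISp A was highest and PGISp G lowest, with all controls between them, a difference of 0.05 (adjusted p = 0.889). On the dimmer probe the values were 8.23, 8.41, 8.15 and 7.99 in control spines B, D, F and H, and 7.92, 7.92, 7.58 and 7.76 in PGISp spines A, C, E and G. Here every PGISp spine lay below every control, by -0.40 in the mean, and in the fit of all 12492 probes this probe fell at an adjusted p of 0.0512. It was the only called probe among the 43 member probes above the filter, where 4.36% of all probes were called lower. The transcripts each probe reads were not tested.

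Other genes with several probes gave like or unlike readings. Birc5 had 3 probes, with differences of -0.19, -0.18 and -0.18. Cdc20 had 4, from -0.07 to 0.04. Mcm6 had 0.13 on its brighter probe and -0.09 on the dimmer. The dimmer Nusap1 probe, above background on 6 arrays, differed by -0.15 without overlap between the groups (adjusted p = 0.129), whereas the brighter one differed by 0.24. In all, 8 members had more than 1 probe above the filter. Of the 43 member probes above the filter 2, those of Rrm2 and Nusap1, had groups that did not overlap. Among all genes tested, each read from its brightest probe, the groups did not overlap for 13.4%.

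**Figure D2:**
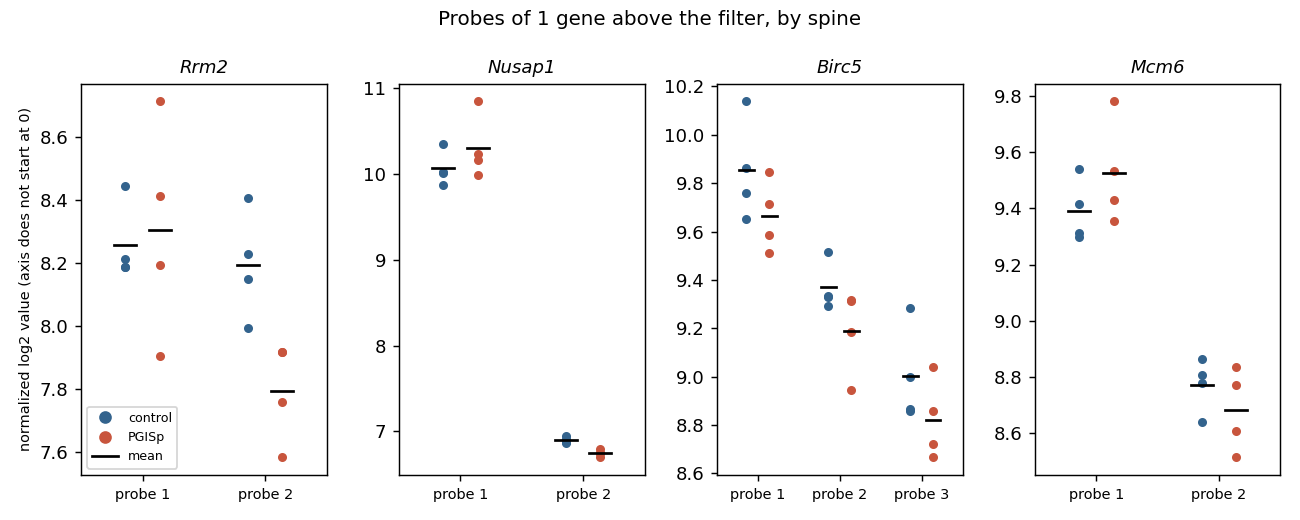
Normalized log2 value (y axis, not starting at 0) of each probe above the filter for 4 members, with 1 point per spine, blue for control and orange for PGISp, and the group mean as a bar. For Rrm2 the means of probe 1 are 8.26 and 8.31 and those of probe 2 are 8.19 and 7.79, while the 3 Birc5 probes differ the same way.

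Among the regulators of mitotic entry and exit, Cdk1 encodes the kinase that drives cells into mitosis. It read 8.89, 9.11, 8.77 and 8.89 in control B, D, F and H and 9.12, 8.78, 9.20 and 8.95 in PGISp A, C, E and G. PGISp E and A and control D were the highest spines, and control F and PGISp C the lowest. The difference was 0.10 (adjusted p = 0.632), and 0.013 without control B and F. Cdc20, which activates the anaphase-promoting complex so that sister chromatids separate, differed by -0.07 (adjusted p = 0.826).

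Mitotic kinases and the spindle checkpoint were read from 4 members, 2 above 0 and 2 below. Birc5 encodes survivin, a subunit of the complex through which Aurora B acts at centromeres. Its values were 9.76, 10.14, 9.86 and 9.65 in control B, D, F and H and 9.85, 9.58, 9.71 and 9.51 in PGISp A, C, E and G. Control D was the highest spine, PGISp G the lowest, and PGISp A and E lay within the control range. The difference was -0.19 ± 0.11 (SE), with an adjusted p of 0.353, and -0.093 without control D. Plk1, a kinase needed throughout mitosis, differed by -0.10 (adjusted p = 0.619), Bub1b, a subunit of the checkpoint complex, by 0.08 (adjusted p = 0.662), and Aurka, the Aurora kinase of the spindle poles, by 0.00 (adjusted p = 0.998).

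Chromosome genes had Cenpa as the brightest mitosis member. Cenpa, the histone variant that marks centromeres, read 11.12, 11.28, 10.93 and 11.13 in control B, D, F and H and 11.35, 11.16, 11.05 and 10.68 in PGISp A, C, E and G. PGISp A was the highest spine and PGISp G the lowest, with the controls between them, so the difference was -0.05 (adjusted p = 0.858) while the PGISp SD was larger than that of the controls. Top2a, the topoisomerase that untangles sister chromatids and a usual proliferation marker, read 8.95, 9.14, 9.11 and 9.05 in control B, D, F and H and 9.06, 9.50, 9.04 and 9.18 in PGISp A, C, E and G. PGISp C was the highest spine, PGISp G lay just above control D, and PGISp A and E lay within the control range. The difference was 0.14 (adjusted p = 0.482), and 0.033 without PGISp C.

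Spindle and cytokinesis genes had the members farthest apart. Nusap1, which binds and bundles spindle microtubules, read 10.01, 10.34, 9.87 and 10.02 in control B, D, F and H and 10.84, 10.16, 10.23 and 9.98 in PGISp A, C, E and G. PGISp A was the highest spine and the other 3 PGISp spines lay within the control range, for a difference of 0.24 ± 0.17 (SE) and an adjusted p of 0.455. Without PGISp A the difference was 0.06, and without control B and F it was 0.12.

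Prc1, which crosslinks microtubules of the central spindle, read 10.26, 10.52, 10.34 and 10.29 in control B, D, F and H and 10.32, 10.40, 10.06 and 9.92 in PGISp A, C, E and G. PGISp E and G were the lowest spines, while PGISp A and C lay within the control range. The difference was -0.18 ± 0.11 (SE), with an adjusted p of 0.381, and -0.092 without PGISp G. Tpx2, which targets Aurora A to the spindle, read 7.47, 7.56, 7.33 and 7.45 in control B, D, F and H and 7.36, 7.42, 7.27 and 7.26 in PGISp A, C, E and G. PGISp E and G lay below every control. It differed by -0.13 (adjusted p = 0.306). The kinesins Kif11 and Kif23 differed by 0.03 and 0.01.

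The remaining 11 members with a probe (Prim1, Pola1, Ccna2, Ccnb2, Ccnf, Ube2c, Nek2, Melk, Bub1, Cenpe and Kif20a) did not pass the filter, and 9 of them are mitosis genes. Their values lay near background, where a decrease could not be read. Ccna2, cyclin A2, read 6.74 to 6.81 in the controls and 6.58 to 6.71 in the PGISp spines, and was above background on 3 arrays, so its groups did not overlap but lay at background. Melk was above background on 4 arrays with each of its probes. With no filter, 42 members were tested and 0 were called.

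The spines of 1 group differed from each other by as much as the groups did. Within a group the SD of a member's log2 values had a median of 0.14, from 0.03 to 0.37, against a median size of 0.10 for the difference between groups. Each spine's level of a list was taken as the mean, over the members tested, of the log2 deviation from the gene's mean over 8 arrays. For replication it was 0.00, 0.15, -0.08 and -0.04 in control spines B, D, F and H, and 0.03, 0.02, 0.00 and -0.09 in PGISp spines A, C, E and G. For mitosis it was 0.00, 0.16, -0.05 and -0.09 in the controls and 0.12, 0.02, -0.01 and -0.15 in the PGISp spines. Control D was the highest spine on both lists, PGISp A the second and PGISp G the lowest, so the extremes of both lists lay in both groups. Of the 31 members, 12 were highest on control D and 7 on PGISp A, and 10 were lowest on PGISp G. None was lowest on control D.

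**Figure D3:**
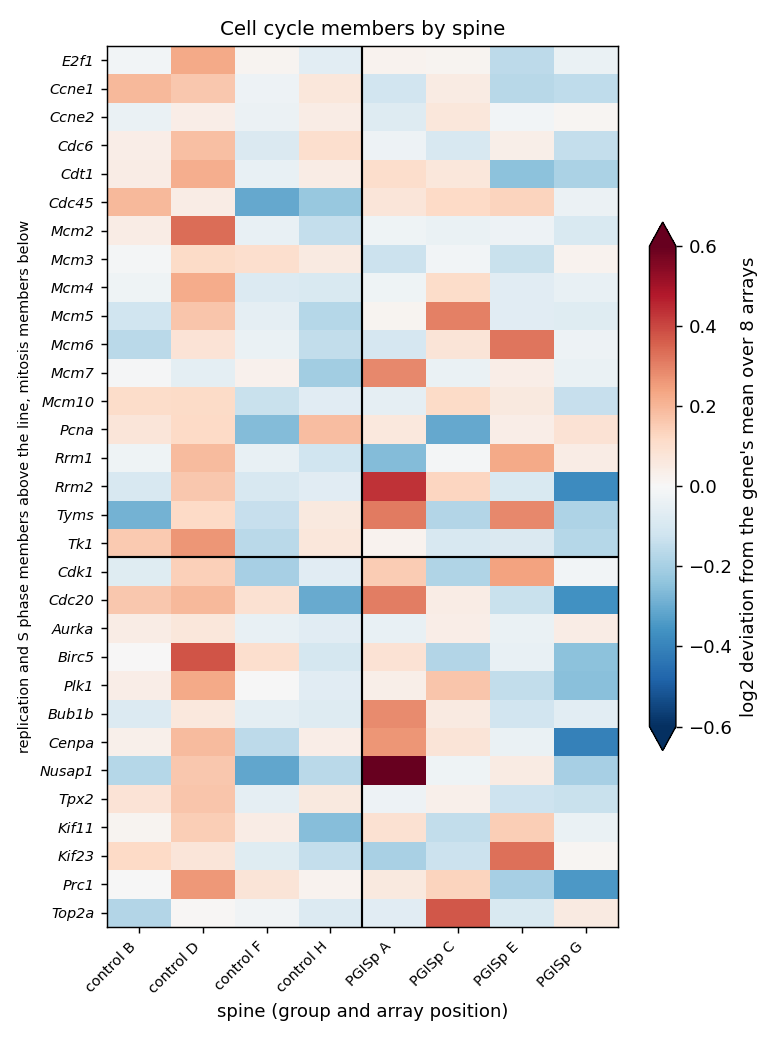
Log2 deviation of each of the 31 members tested from its mean over the 8 arrays (colour, red higher and blue lower), with 1 column per spine. Replication members stand above the horizontal line, mitosis members below it, and the vertical line parts control from PGISp spines. Control D is the highest spine for 12 members and PGISp G the lowest for 10.

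The genes of other marrow cells and of skeletal muscle were compared over the same spines. Erythroid markers (15 tested) had a level of 0.24 in control D, 0.15 in PGISp A and 0.10 in control H, and -0.14 to -0.06 in the other 5 spines. B cell precursor markers (7 tested) stood at 0.29 in control D and between -0.15 and 0.12 elsewhere. Skeletal muscle markers (20 tested) stood at 0.35, -0.08, 0.46 and 0.11 in control B, D, F and H and at -0.64, -0.17, -0.30 and 0.26 in PGISp A, C, E and G. Control D, where the cell cycle lists were highest, had the lowest muscle level of the controls, and PGISp A the lowest of all 8. PGISp G, where the cell cycle lists were lowest, had the highest of the PGISp spines. Control F, with the highest muscle level, stood at -0.08 for replication and -0.05 for mitosis. Not every spine followed this order. Control B and PGISp E lay far apart in muscle level but not in replication (0.00 in both) or mitosis (0.00 and -0.01). The part of these cell types in the members' values was not tested.

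Granulocyte markers separated the groups, which the cell cycle lists did not. The gene lists were chosen with earlier results of these data known, so this contrast is a description and not a test. The list of early granulocyte markers, which holds azurophil granule proteases of promyelocytes with transcription factors and stefins of the same lineage, rose in 9 of 9 genes tested, with a median log2 difference of 0.96. Its level ran from -0.66 to -0.36 in the controls and from 0.18 to 0.68 in the PGISp spines. Markers of the later granules and of mature neutrophils rose in 12 of 15, with a median of 0.70 and levels of -0.37 to -0.24 and 0.28 to 0.34. Across all genes 6.26% were called higher, and the methods' t-test after adjustment called 7 of 9 and 9 of 15. The stefins Stfa1 and Cstdc4, which are not azurophil granule proteases, rose most in the early list, 2.89-fold and 2.28-fold. Prtn3, a serine protease of azurophil granules, rose 2.27-fold (adjusted p = 0.00152), and Chil3, a chitinase-like protein of neutrophils and macrophages, 1.90-fold (adjusted p = 0.00022). PGISp G, lowest on the cell cycle lists, also had the lowest early granulocyte level of the PGISp group, 0.18 against 0.52 to 0.68. Without control B and F, 5 of 9 and 10 of 15 were called, where 1.28% of all genes were called higher. In the same spines the median of the 31 members was -0.01, or -0.03 without control B and F.

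Markers of other cells also differed between the groups. Fibroblast and endothelium markers ran from -0.21 to -0.16 in the controls and from -0.02 to 0.53 in the PGISp spines, with 3 of 8 tested called higher. The 3 were Col3a1, Dcn and Lum, none of them an endothelial marker. Osteoblast markers had 4 of 10 called higher and overlapped between the groups, from -0.37 to -0.03 in the controls and from -0.04 to 0.59 in the PGISp spines. Across all genes 6.26% were called higher. Without control B and F the counts were 0 of 8 and 1 of 10, where 1.28% of all genes were called higher. The methods' t-test after adjustment also called 0 of 8 and 1 of 10. Skeletal muscle markers lay below 0 in 20 of 20 tested, with a median log2 difference of -0.45. Only Mb was called lower (limma adjusted p = 0.0114), where 4.56% of all genes were. Without PGISp G 14 of 20 were called lower, where 16.3% of all genes were called in either direction. Without control B and F 0 of 20 were, with a median of -0.21. Of 7 chondrocyte markers tested, 2 lay above 0 and 5 below, and only Cytl1 was called, as lower (limma adjusted p = 0.00269). The part of these markers in the members' values was not tested.

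**Figure D4:**
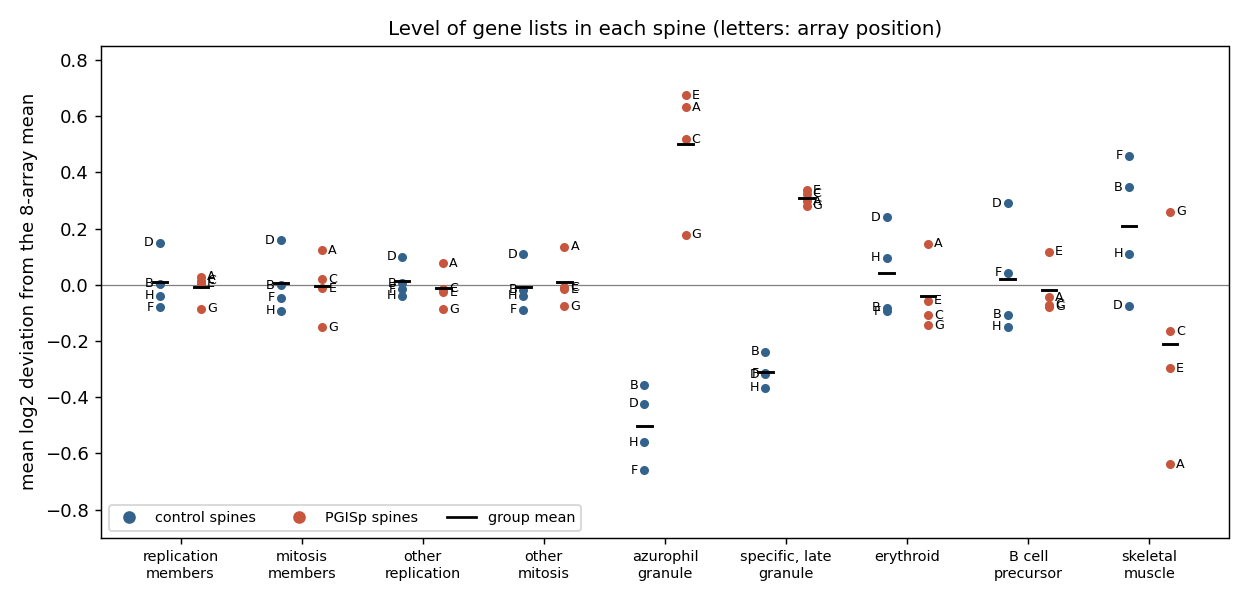
Mean log2 deviation from the 8-array mean (y axis) of each gene list in each spine, with 1 lettered point per spine, blue for control and orange for PGISp, and the group mean as a bar. Replication and mitosis members run from -0.15 to 0.16 with the groups mixed, whereas the early granulocyte list (azurophil granule) lies at or below -0.36 in all 4 controls and at or above 0.18 in all 4 PGISp spines. The lists were chosen with earlier results of these data known.

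Further genes of the same processes were counted beside all 9608 genes, of which 10.8% were called and 22.6% had an unadjusted p under 0.05. Of 50 other replication genes (origin recognition, polymerases, clamp loader, repair at the fork), 34 were tested and 0 were called, with 5 at an unadjusted p under 0.05 in limma, 0 calls by the methods' t-test after adjustment and a median of -0.02. Of 75 other mitosis genes, 51 were tested, 2 rose and 1 fell, with a median of 0.02. Cdca7, which acts in chromatin with a remodelling enzyme and is not part of the mitotic machinery, read 9.19, 9.08, 8.93 and 9.22 in control B, D, F and H and 9.46, 9.62, 9.47 and 9.43 in PGISp A, C, E and G. Every PGISp spine lay above every control, and it rose 1.31-fold (adjusted p = 0.0199). Hmgb2, a chromatin protein abundant in dividing cells, rose 1.32-fold (adjusted p = 0.0833). Its groups overlapped, with PGISp C (10.29) below control H (10.32). Cdc25b, the phosphatase that activates Cdk1, fell by 0.26 in log2 value (adjusted p = 0.0593).

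The genes that hold cells in G1 or release them had 26 of 38 tested, of which 3 rose and 1 fell, with a median of 0.07, where 6.26% of all genes were called higher and 4.56% lower. Cdkn1a encodes p21, an inhibitor of cyclin-dependent kinases. It read 7.62, 7.59, 7.54 and 8.02 in control B, D, F and H and 8.19, 8.12, 8.13 and 8.11 in PGISp A, C, E and G. The 4 PGISp spines lay close together and above every control, and it rose 1.36-fold (adjusted p = 0.0308). Its other probes above the filter differed by 0.17 and 0.11. Btg1, an antiproliferative gene, rose 1.32-fold (adjusted p = 0.0247), with 0.40 and 0.28 on its other probes on the log2 scale.

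Tfdp1 encodes the protein that pairs with E2F factors on DNA. Its values were 9.08, 9.01, 9.05 and 9.01 in control B, D, F and H and 9.25, 9.51, 9.27 and 9.28 in PGISp A, C, E and G. All PGISp spines lay above all controls, and it rose 1.23-fold (adjusted p = 0.0349). E2f2, an E2F factor used by erythroid precursors in mice, read 10.40, 10.76, 10.39 and 10.25 in control B, D, F and H and 10.28, 9.64, 9.92 and 9.91 in PGISp A, C, E and G. PGISp C, E and G lay below every control and PGISp A among them. It fell by 0.51 in log2 value (adjusted p = 0.0627), and its other probe differed by -0.53. Without control B and F none of these 7 genes was called, where 1.70% of all genes were, and without control F alone Cdkn1a, Tfdp1, E2f2, Hmgb2 and Cdc25b were not called. The methods' t-test after adjustment called Cdca7, Btg1 and Tfdp1 but not the other 4. Hmgb2 lost its call under 9 of the 18 alternatives that keep the threshold, E2f2 under 8 and Cdc25b under 6, including single arrays other than control F.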

How the data were processed

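Spine RNA of 4 control and 4 PGISp mice was measured on 8 arrays. The values deposited by the authors are log2 intensities, scanned with Illumina software (the submitters' notes name BeadStudio) and then, by the paper's methods, transformed by variance stabilization and normalized by robust splines in lumi. Nothing was normalized again here. Another deposited table has 16 signal and detection columns that could not be assigned to a sample by their names and was not used.

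Of 25697 probes, 25695 had values, and 23976 of these carried 1 gene symbol, updated through the gene identifier for 23960. Probes with a mean above 6.77, the median of all values, were kept (12492), and the brightest probe of each gene was tested (9608 genes, 8894 with a symbol). The comparison of the groups used lmFit and eBayes of limma with Benjamini-Hochberg adjustment over all 9608 genes, called at an adjusted p under 0.1, the false discovery rate of the study, which used a t-test with a permutation correction that was not run here. The members and gene lists were chosen with earlier results of these data known. Per-spine values are given for members that passed, for the 4 of each list with the smallest p otherwise, for the brightest of each list and for the usual proliferation markers, and for Rrm2, whose probes differed, chosen after its values were seen. Of each other list, at most 4 genes that passed are named. The lists of other replication, mitosis and G1 genes and the cell type markers were counted, not tested as sets. The main limma fit and the methods' t-test were tested on simulated data, and the other alternatives were not. The labels do not number the mice or pair them, and the 4 arrays a group limit the precision.

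The 19 alternatives were no filter, a filter on background, every probe, the mean of probes, an intensity trend, robust eBayes, array weights, array position, the methods' t-test, an adjusted p under 0.05, leaving out control B and F, and leaving out each array in turn. Promoter windows and their words came from RefSeq (GRCm38.p6). Fits ran in limma 3.58.1 under R 4.3.3, and summaries and plots in Python 3.11.15 with pandas 2.3.3, numpy 2.4.6 and matplotlib 3.10.9.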

Additional observations from a re-analysis of the deposited data

Results flagged for a closer look

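In each of 66 groups of 4 spines (the 31 members and the levels of both lists, in each group), the gap between an extreme spine and its neighbour was set against the range of the group. Of the 66, 2 passed the critical value of Dixon's test at 95%, no larger a share than the about 5% that chance gives. For Pcna, PGISp C read 6.89, near background, and the other PGISp spines 7.23 to 7.28, a gap of 0.877 of the range. For Rrm2 on its brighter probe, control D read 8.44 and the other controls 8.19 to 8.21, a gap of 0.894.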

How the results depend on the processing

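Read from its brightest probe or the mean of its probes, no member was called under 18 of the 19 alternatives. With every probe tested separately, the dimmer Rrm2 probe was called lower (adjusted p = 0.0512). Leaving out each array in turn gave 0 to 1 members called lower, and 0 to 1 of the replication members, the 1 being Ccne1 without PGISp C (adjusted p = 0.0952, log2 difference -0.24). Between alternatives its log2 difference ran from -0.24 to -0.16. With each array left out in turn, the log2 difference of Mcm4 ran from -0.053 to 0.059, above 0 without control D (0.059) and without PGISp E (0.0071). That of Cenpa ran from -0.15 to 0.074, above 0 without control D (0.0015) and PGISp G (0.074), and that of Pcna from -0.15 to 0.035, above 0 without PGISp C (0.035). These values above 0 had adjusted p of 0.696 or more in limma. The cause was not tested. No paired analysis was possible because the labels give no replicate numbers. Called genes over the whole table numbered 1039 in limma, 411 by the methods' t-test after adjustment, 163 without control B and F and 1564 without PGISp G. Signal near background leaves 11 members untested.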
